A study of Homo sapiens with 6 samples.

Results

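The genes described here are 42 genes of the interferon response and of RNA sensing, chosen by symbol from a list, and 39 of them are among the 11911 genes of the deposited table. IFI27, IFI44L and OASL have no row in that table, so their levels were not analysed here. RNA was sequenced from RS4;11, an established cell line grown from a human acute lymphoblastic leukemia of early B cells with a KMT2A::AFF1 fusion gene. By their titles, 3 samples were RS4;11 cells with asparagine and 3 were RS4;11 cells without it, and the series dates RNA extraction to 16 hours after the amino acid was taken away. For all 6 samples alike the labels enter a culture medium free of asparagine with 10% dialyzed serum, so the serum given to the group with asparagine is not certain. The short name of the depleted columns may abbreviate asparaginase, which neither labels nor files settle. The column names of all 6 samples begin with Ctrl, which the titles do not explain. No genotype, age or further agent is given, and no label says whether a group's samples were separate cultures. The p-values therefore reflect the spread among these libraries alone, which may be technical.

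Cells detect foreign or misplaced RNA with helicases such as RIG-I and MDA5, which signal through the mitochondrial adaptor MAVS to the transcription factors IRF3 and IRF7 and so switch on interferon genes. Secreted type I interferon binds the receptor pair IFNAR1 and IFNAR2, whose kinases JAK1 and TYK2 activate STAT proteins such as STAT2. These join IRF9, and the complex binds a promoter element called the interferon-stimulated response element to induce antiviral genes.

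The promoters of the changed genes are printed because a match to this element was found in genes that rose as well as in genes that fell. The search used GAAANNGAAA on both strands, where N is any base, in the 250 bases before each RefSeq start on GRCh38.p14. Matches may overlap each other. Of the 42 listed genes, 31 had a promoter in the RefSeq table, and 18 of these (58.1%) held a match, against 3.02% of all 35116 promoters. Capitals mark the matches, each sequence is written 5′ to 3′ on the gene's strand, and stretches that overlap an annotated exon were kept to 30 bases or fewer. For genes with matches in separate stretches, 1 line is given per stretch.

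ISG15, which fell in depleted cells, chr1:1013364-1013419, plus strand: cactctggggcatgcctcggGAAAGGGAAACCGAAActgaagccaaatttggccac
IFI6, lower, chr1:27672256-27672368, minus strand: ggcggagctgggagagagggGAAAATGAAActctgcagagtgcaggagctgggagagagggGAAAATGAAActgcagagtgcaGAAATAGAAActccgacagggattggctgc
BST2, lower, chr19:17405740-17405765, minus strand: tctggGAAACTGAAACTGAAAaccta
OAS3, lower, chr12:112938321-112938350, plus strand: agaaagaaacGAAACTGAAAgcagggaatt
OAS3, second stretch, chr12:112938452-112938473, plus strand: agccgggcggGAAAACGAAAcc
LGALS3BP, lower, chr17:78979962-78979991, minus strand: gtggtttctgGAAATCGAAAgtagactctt
ISG20, higher, chr15:88638937-88638966, plus strand: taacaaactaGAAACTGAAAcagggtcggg
IFIH1, higher, chr2:162318823-162318848, minus strand: ttcgcTTTCCTTTTCTGTTTCccgcg
IFIH1, second stretch, chr2:162318686-162318715, minus strand: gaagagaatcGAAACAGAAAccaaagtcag
RSAD2, higher, chr2:6877612-6877661, plus strand: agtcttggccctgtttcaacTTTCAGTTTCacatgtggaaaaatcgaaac

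In ISG15, BST2 and the upstream stretch of IFIH1, 2 matches overlap and form a run of repeated GAAA units or its complement. By direction, 5 of 8 promoters of genes that fell held a match, as did 3 of 9 promoters of genes that rose and 8 of 12 promoters of genes that did not pass the test. The promoters of IFI27 and IFI44L also held matches, but without levels these genes are in no count by direction. XAF1, IRF9, DDX58, HERC6, DTX3L and SAMD9L rose and had no match, which says only that these letters are not in this window. The DTX3L window ends inside the match of its neighbour PARP9, so that match was not counted for DTX3L. IFI35, OAS1 and UBE2L6 fell and had no match either. IFIT2, TRIM22, IRF3, USP18 and UBA7 changed but had no promoter to search.

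The table held 29971364 to 51127073 reads per library, and values are the authors' normalized CPM, a depth-scaled read count per gene. Levels of depleted library 1 differed from those of depleted libraries 2 and 3. Pearson's r across genes, which are not independent, was 0.940 and 0.933 between it and the other depleted libraries. Between those 2 it was 0.996, and among the libraries with asparagine 0.992 to 0.996. Against the libraries with asparagine, r was 0.927 to 0.928 for depleted library 1 and 0.845 to 0.882 for depleted libraries 2 and 3. All 11 listed B-cell precursor markers were in the table, with summed levels of 4081 to 4375 CPM with asparagine and 3150 to 4116 in depleted cells. Of the T and NK, myeloid, and erythroid or stromal lists, 1 marker each was in the table (NKG7 at most 69.2 CPM, CSF1R at most 31.4 and COL1A1 at most 4.47).

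The interferon and RNA sensing genes did not move in 1 direction. All 39 passed the filter on low values, and their lowest value in any library was 0.965 CPM. With asparagine depleted, 11 of the 39 rose and 11 fell (limma, adjusted p below 0.05 by Benjamini-Hochberg over all 11892 genes tested). That is 56.4% of the members, near the 51.3% called among all genes tested, of which 25.1% were higher and 26.2% lower. Their median log2 fold change was 0.055, and that of all genes was 0.0098. Values of the groups did not overlap in 27 of 39 members (69.2%), with 61.1% among all genes tested. In such bulk samples fewer cells of a type and less RNA per cell cannot be told apart.

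The number of members that rose depended on single libraries, as did the share called among all genes tested. Leaving out library 1, 2 or 3 with asparagine left 5, 5 and 6 of them, and leaving out depleted library 1, 2 or 3 gave 14, 5 and 5. The number that fell ranged from 8 to 13 in these fits. The share of all genes called was 30.3%, 29.8% and 35.7% without library 1, 2 or 3 with asparagine. Without depleted library 1, 2 or 3 it was 81.8%, 32.6% and 35.3%, beside 51.3% with all libraries. Of the 22 changed members, 12 passed in the same direction under each of 20 alternative settings. These were IRF9, ISG20, XAF1 and HERC6, which rose, and IRF3, ISG15, IFI6, OAS1, OAS3, BST2, UBE2L6 and LGALS3BP, which fell.

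**Figure D1:**
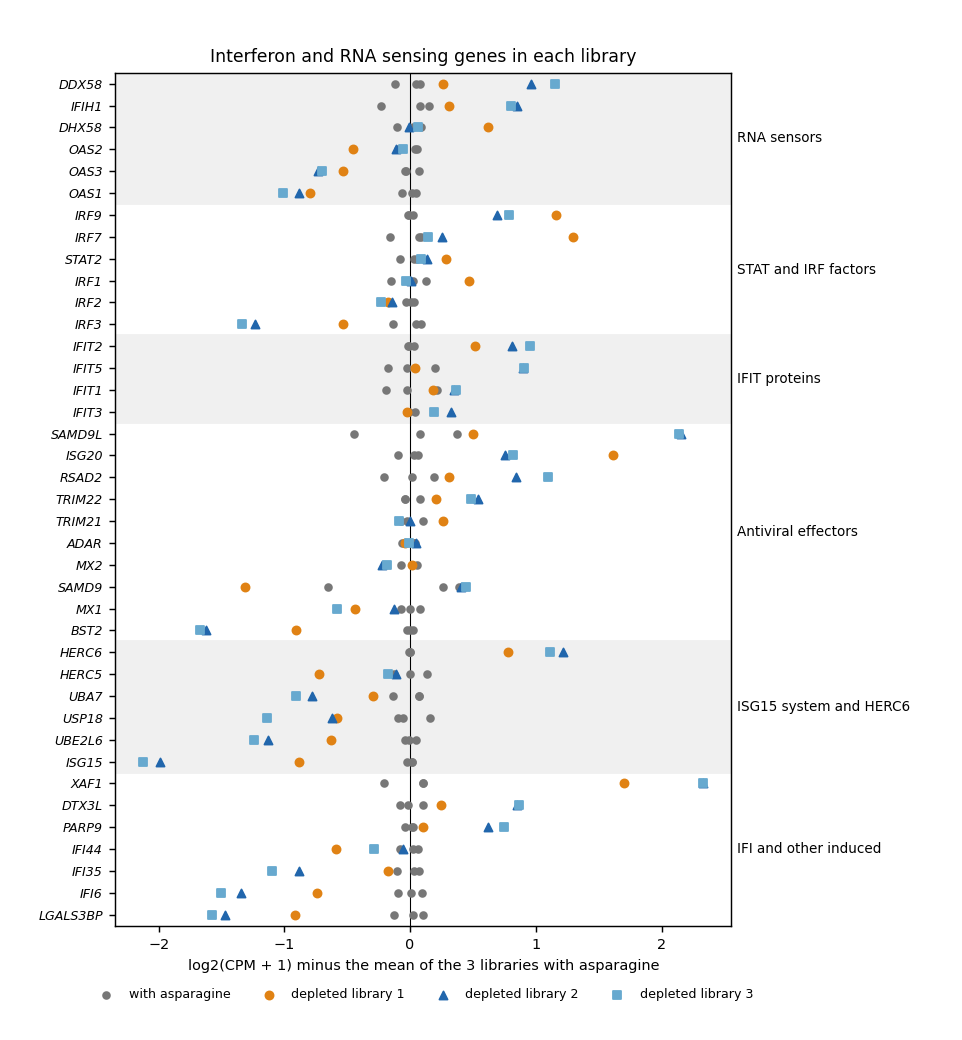
Each row is 1 of the 39 genes, grouped by role, and each point is 1 library, placed by log2(CPM + 1) minus the mean of the 3 libraries with asparagine. Depleted library 1 (circles) was the highest of the depleted libraries for 19 genes and the lowest for 18, while depleted libraries 2 and 3 (triangle and square) lie close together.

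Among the 6 RNA sensors, 2 helicases rose and 2 OAS enzymes fell, where 25.1% and 26.2% of all genes tested did so. A helicase (DHX58) and an OAS enzyme (OAS2) did not pass the test. DDX58, the older symbol of RIGI, encodes RIG-I, which recognizes short RNA with a triphosphate end (chromosome 9, 32455705 to 32526324). It had 14.9, 12.9 and 14.6 CPM in libraries 1, 2 and 3 with asparagine, and 17.2, 28.4 and 32.7 in depleted libraries 1, 2 and 3. Each depleted value was above each value with asparagine, although library 1 only just. The rise was 1.84-fold (log2 fold change 0.79, SE 0.24, limma adjusted p = 0.0308).

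IFIH1 encodes MDA5, the sensor of long RNA duplexes (chromosome 2, 162267079 to 162318703). Its levels were 16.7, 13.3 and 17.6 CPM with asparagine and 19.8, 29.2 and 28.3 in depleted cells, again without overlap. IFIH1 rose 1.62-fold, by 0.66 on the log2 scale (SE 0.20, limma adjusted p = 0.0297). DHX58 encodes LGP2, another helicase of the family that tunes the signal of the others. It stood at 22.2, 21.1 and 19.2 CPM with asparagine and 32.5, 20.6 and 21.8 in depleted cells, so that only depleted library 1 was high. Its log2 fold change of 0.22 (95% interval -0.24 to 0.68) did not pass the test (limma adjusted p = 0.361). The calls of DDX58 and IFIH1 were lost when any library other than depleted library 1 was left out and with the GC correction and replicate block together, that of DDX58 also with quantile normalization, with adjusted p of up to 0.155 and 0.157 over the alternatives.

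The OAS enzymes bind RNA duplexes and make a small oligoadenylate messenger that activates RNase L. OAS1 (chromosome 12, 112906777 to 112933222) had 13.3, 13.04 and 12.3 CPM with asparagine and 6.99, 6.50 and 5.90 in depleted cells. All depleted libraries were about alike here and well below the others. OAS1 fell 1.99-fold (log2 fold change -0.90, SE 0.13, limma adjusted p = 0.00204). OAS3, its neighbour on chromosome 12 (112938352 to 112973249), had 60.2, 55.8 and 55.99 CPM with asparagine and 39.2, 34.1 and 34.9 without. It fell 1.59-fold, by 0.66 on the log2 scale (SE 0.12, limma adjusted p = 0.00541). OAS2, further along the same chromosome, had 86.1, 94.5 and 95.9 CPM with asparagine. In depleted cells OAS2 had 67.1, 85.1 and 88.6 CPM, and these ranges overlap (log2 fold change -0.21, 95% interval -0.55 to 0.14, limma adjusted p = 0.265).

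The transcription factors of the pathway were split as well, with 1 that rose, 1 that fell and 4 that did not pass. Of all genes tested, 25.1% rose and 26.2% fell. IRF9, the DNA-binding partner of STAT2 (chromosome 14, 24161053 to 24166565), was at 13.97, 14.4 and 14.1 CPM with asparagine. In depleted libraries 1, 2 and 3 it was at 32.98, 23.5 and 25.2 CPM, all far above. Part of the IRF9 exons overlap those of AL136295.5 on the same strand, and reads of these genes cannot be told apart there. IRF9 rose 1.92-fold (log2 fold change 0.88, SE 0.16, limma adjusted p = 0.00495). STAT2, its partner, had 48.7, 47.8 and 44.2 CPM with asparagine and 57.2, 51.4 and 49.7 without. The STAT2 values do not overlap, but the difference was small (log2 fold change 0.17, 95% interval -0.12 to 0.46) and did not pass (limma adjusted p = 0.284).

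IRF3, the factor that sensors activate first (chromosome 19, 49659569 to 49665875), had 137, 142 and 121 CPM with asparagine. Depleted libraries 1, 2 and 3 had 91.4, 56.01 and 51.96 CPM, so library 1 was the least reduced. IRF3 fell 2.01-fold, by 1.04 on the log2 scale (SE 0.22, limma adjusted p = 0.00936). Part of its exons overlap those of BCL2L12 on the opposite strand, and without a stated strand setting reads of the 2 genes cannot be told apart. IRF7, the factor that amplifies interferon production, showed the reverse order of libraries. It had 58.7, 59.4 and 49.9 CPM with asparagine and 138, 66.8 and 61.6 in depleted libraries 1, 2 and 3. Depleted library 1 was far above the other libraries, and the log2 fold change of 0.56 (95% interval -0.16 to 1.29) did not pass (limma adjusted p = 0.159). IRF1, an activator also induced by interferon gamma whose exons overlap C5orf56 on the opposite strand, ranged from 126 to 153 CPM with asparagine and from 137 to 194 without, and IRF2, its antagonist, from 76.3 to 79.6 and from 66.4 to 70.5. Their log2 fold changes were 0.15 and -0.19 (limma adjusted p = 0.484 and 0.188).

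Of the 6 genes of ISG15 conjugation, 4 fell and 1 rose, where 26.2% of all genes tested fell. ISG15 is a ubiquitin-like protein that interferon induces strongly and that UBA7 (its activating enzyme), UBE2L6 (its carrier) and HERC5 (its main ligase) attach to other proteins, while USP18 removes it. ISG15, UBA7, UBE2L6 and USP18 fell, HERC5 did not pass, and HERC6, a relative of HERC5 grouped with them, rose. The median log2 fold change of the 6 genes was -0.72.

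ISG15 (chromosome 1, 1001138 to 1014540) had 30.6, 30.6 and 29.7 CPM with asparagine and 15.9, 6.87 and 6.19 in depleted libraries 1, 2 and 3. It was the member with the largest fall, 3.14-fold (log2 fold change -1.67, SE 0.32, limma adjusted p = 0.00603). UBE2L6 (chromosome 11, 57551656 to 57568284) had 143, 138 and 135 CPM with asparagine and 88.98, 62.6 and 57.9 without. Its fall was 1.98-fold, by 1.00 on the log2 scale (SE 0.18, limma adjusted p = 0.00453). UBA7 (chromosome 3, 49805207 to 49813946) had 163, 163 and 141 CPM with asparagine and 126, 89.7 and 82.3 without. For both enzymes depleted library 1 lay between the libraries with asparagine and the other depleted ones. The log2 fold change of UBA7 was -0.66 (SE 0.18, limma adjusted p = 0.0224). The UBA7 call was lost on leaving out library 1 or 2 with asparagine or depleted library 2 or 3 (adjusted p of up to 0.0868).

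USP18, which also blocks interferon receptor signalling, was low, at 3.15, 3.80 and 3.03 CPM with asparagine and 1.88, 1.81 and 0.965 in depleted cells. These values rest on 36 to 152 reads per library. USP18 fell 2.15-fold (log2 fold change -0.78, SE 0.19, limma adjusted p = 0.0136), and the call was lost without library 2 with asparagine. HERC5 had 5.57, 6.18 and 6.89 CPM with asparagine and 3.36, 5.67 and 5.36 without, which overlap (log2 fold change -0.34, limma adjusted p = 0.188). HERC6 (chromosome 4, 88378739 to 88443111) had 6.78, 6.73 and 6.77 CPM with asparagine and 12.3, 17.1 and 15.8 without. It rose 2.23-fold in values that do not come near each other (log2 fold change 1.04, SE 0.16, limma adjusted p = 0.00241).

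**Figure D2:**
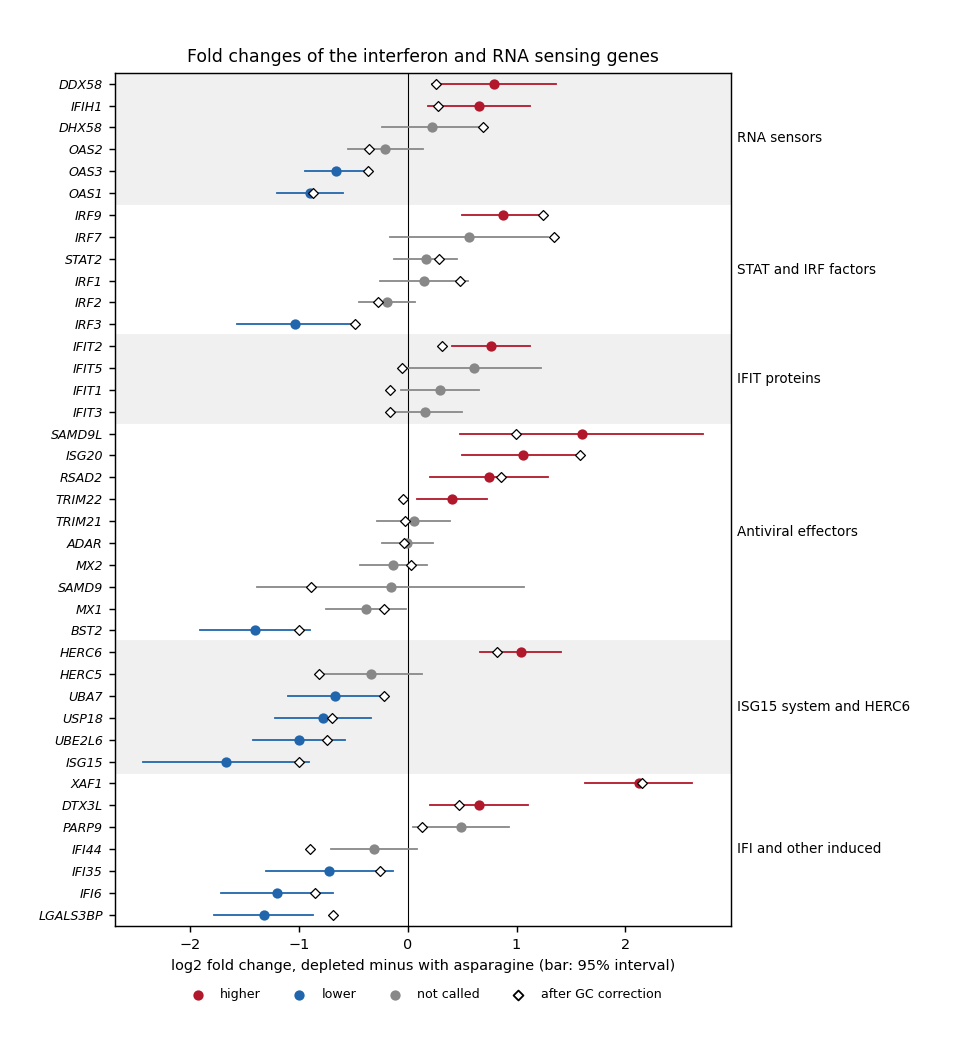
Points are log2 fold changes of the 39 genes, depleted minus with asparagine, with 95% intervals, in red where they rose, blue where they fell and grey where they did not pass. Open diamonds are the same genes after the GC correction; XAF1 hardly moved (2.12 and 2.15), while TRIM22 went from 0.41 to -0.043.

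The IFIT proteins bind foreign RNA caps and ends and are among the most responsive interferon-induced genes. All 4 were low to moderate in level, and 1 of the 4 rose, beside 25.1% of all genes tested. IFIT2 had 2.73, 2.76 and 2.85 CPM with asparagine and 4.41, 5.64 and 6.33 in depleted cells, on 97 to 236 reads per library. The groups are clearly apart, with a rise of 1.97-fold (log2 fold change 0.76, SE 0.15, limma adjusted p = 0.00689). IFIT2 shares exonic sequence with LIPA on the opposite strand. After a correction for GC content, described below, its log2 fold change was 0.31 and did not pass (limma adjusted p = 0.0527).

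IFIT5 had 26.8, 24.1 and 31.5 CPM with asparagine and 28.1, 51.7 and 52.1 in depleted libraries 1, 2 and 3. Only libraries 2 and 3 were high, and the change did not pass (log2 fold change 0.61, 95% interval -0.0020 to 1.23, limma adjusted p = 0.0857). IFIT3 ranged from 9.01 to 9.48 CPM with asparagine and from 9.04 to 11.8 without (log2 fold change 0.16, limma adjusted p = 0.359). IFIT1 ranged from 1.96 to 2.93 and from 2.84 to 3.35 CPM (log2 fold change 0.30, limma adjusted p = 0.139).

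Of the 10 antiviral effectors, 4 rose and 1 fell, beside 25.1% and 26.2% of all genes tested. BST2, which encodes tetherin, a membrane protein that holds budding virus on the cell (chromosome 19, 17402939 to 17405648), had 187, 193 and 191 CPM with asparagine. In depleted libraries 1, 2 and 3 it had 100.9, 61.1 and 59.1 CPM. BST2 fell 2.58-fold, by 1.40 on the log2 scale (SE 0.21, limma adjusted p = 0.00258). It also had the highest level per length of the members with asparagine, 170.2 CPM per kilobase of merged exons, and at 65.9 was still the highest in depleted cells.

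ISG20, an exonuclease that degrades RNA (chromosome 15, 88636153 to 88656483), had 70.5, 72.1 and 64.3 CPM with asparagine. Depleted libraries 1, 2 and 3 had 212, 117 and 122 CPM, library 1 being by far the highest. ISG20 rose 2.18-fold (log2 fold change 1.06, SE 0.24, limma adjusted p = 0.0104). SAMD9L, which restrains growth and translation (chromosome 7, 93130055 to 93148369), had 9.78, 6.51 and 12.2 CPM with asparagine and 13.5, 44.6 and 44.05 without. Here depleted library 1 was just above the libraries with asparagine and libraries 2 and 3 were far above. SAMD9L rose 3.58-fold (log2 fold change 1.60, SE 0.47, limma adjusted p = 0.0279), a call lost on leaving out library 1 or 2 with asparagine or depleted library 2 or 3 (adjusted p of up to 0.14). Its neighbour and relative SAMD9 had 53.8, 28.1 and 58.9 CPM with asparagine and 17.4, 59.4 and 60.99 without. Depleted library 1 was below every SAMD9 value with asparagine, while depleted libraries 2 and 3 were just above them all. The log2 fold change of -0.16 (95% interval -1.38 to 1.07) did not pass (limma adjusted p = 0.815).

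RSAD2, which encodes viperin, an enzyme that makes a chain-ending nucleotide, was rare, at 2.39, 2.01 and 1.57 CPM with asparagine and 2.68, 4.32 and 5.36 without. It rose 2.07-fold on 73 to 200 reads per library (log2 fold change 0.75, SE 0.23, limma adjusted p = 0.0317). TRIM22, a ubiquitin ligase gene, had 65.3, 65.2 and 70.9 CPM with asparagine and 77.4, 97.97 and 94.2 without, a rise of 1.34-fold (log2 fold change 0.41, SE 0.14, limma adjusted p = 0.0405). After the GC correction the TRIM22 value was -0.043 and did not pass (limma adjusted p = 0.714). The RSAD2 and TRIM22 calls were also lost when any library other than depleted library 1 was left out and with the replicate block, that of RSAD2 also with quantile normalization (adjusted p of up to 0.215). The other 5 effectors did not pass. ADAR, which edits adenosine in RNA duplexes and so hides the cell's own RNA from MDA5, was the most abundant member in CPM. It had 465, 497 and 500.03 CPM with asparagine and 474, 502 and 483 without. ADAR differed little between libraries (log2 fold change -0.0022, 95% interval -0.24 to 0.23, limma adjusted p = 0.987). TRIM21, an antibody receptor inside the cell, ranged from 42.8 to 48.3 CPM and from 42.3 to 54.03. MX2 ranged from 37.6 to 41.3 CPM with asparagine and from 33.8 to 40.2 without. MX1, the related antiviral GTPase, had 2.98 to 3.40 and 1.80 to 2.82 CPM, which do not overlap (log2 fold change -0.38, limma adjusted p = 0.0778).

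The largest change of any member was that of XAF1. It encodes a protein that opposes the apoptosis inhibitor XIAP and is induced by interferon (chromosome 17, 6755447 to 6775647). XAF1 had 39.7, 31.9 and 39.9 CPM with asparagine and 122, 189.9 and 190.05 in depleted libraries 1, 2 and 3. Every depleted value was over 3-fold the highest value with asparagine. XAF1 rose 4.51-fold (log2 fold change 2.12, SE 0.21, limma adjusted p = 0.000561), and the alternatives gave adjusted p between 2.94e-08 and 0.00582.

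DTX3L and PARP9 form a complex of a ubiquitin ligase and an ADP-ribosyltransferase and lie head to head on chromosome 3. DTX3L had 101.1, 96.8 and 109.9 CPM with asparagine and 122, 185 and 188 in depleted cells, a rise of 1.61-fold (log2 fold change 0.65, SE 0.19, limma adjusted p = 0.0266). PARP9 had 36.3, 34.8 and 36.2 CPM with asparagine and 38.4, 55.5 and 60.7 without. It leaned the same way in each library but did not pass (log2 fold change 0.49, limma adjusted p = 0.0637). The DTX3L call was lost when any library other than depleted library 1 was left out (adjusted p of up to 0.103). Exons of the pair overlap on opposite strands.

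LGALS3BP, a secreted glycoprotein gene (chromosome 17, 78971238 to 78980109), had 315, 297 and 267 CPM with asparagine and 154, 105 and 97.3 without. It fell 2.47-fold, by 1.32 on the log2 scale (SE 0.19, limma adjusted p = 0.00215). IFI6, which encodes a small membrane protein of mitochondria and endoplasmic reticulum (chromosome 1, 27666061 to 27672218), had 8.12, 8.69 and 7.49 CPM with asparagine. Its depleted values were 4.44, 2.58 and 2.20 CPM, a fall of 2.64-fold (log2 fold change -1.20, SE 0.22, limma adjusted p = 0.0048). Both genes had all depleted libraries below all others, with library 1 the least reduced. IFI35 had 20.7, 21.2 and 18.7 CPM with asparagine and 17.8, 10.5 and 8.90 without (log2 fold change -0.72, SE 0.25, limma adjusted p = 0.0451). The IFI35 call was lost when any library other than depleted library 1 was left out and with the GC correction and replicate block together. IFI44 ranged from 2.12 to 2.45 CPM and from 1.20 to 2.18 and did not pass (limma adjusted p = 0.154).

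The direction of the members moved with the GC content of their transcripts, as it did for all genes. Members that rose had a median GC content of 46.2% (38.6% to 60.2%), and those that fell 57.3% (50.5% to 64.1%). Across the 39 members, which share the same 6 libraries, Pearson's r between GC content and log2 fold change was -0.43 and Spearman's rho -0.41. Over the 11352 tested genes with a GC value they were -0.47 and -0.51. By library, r for the members was 0.055, -0.58 and -0.57 in depleted libraries 1, 2 and 3.

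After a GC correction, which removes a smooth trend on GC content from each library, 13 of the 39 members were higher and 16 lower, beside 69.5% called among all genes with a GC value. Of the 22 members that had changed, 20 were called in the same direction, 9 higher and 11 lower, and the others were IFIT2 and TRIM22. The correction added STAT2, IRF1, IRF7 and DHX58 as higher and IRF2, IFI44, OAS2, HERC5 and SAMD9 as lower. IRF7 had the largest added value, a log2 fold change of 1.34 (limma adjusted p = 2.58e-06), with IRF9 at 1.24 and ISG20 at 1.58. ISG15 was at -0.99 and LGALS3BP at -0.68, both nearer 0 than without the correction. So were IRF3 at -0.48, IFI35 at -0.26 and UBA7 at -0.22, which stayed past the threshold (limma adjusted p = 0.000132, 0.0433 and 0.00834). With the replicate block added to the correction, the IFI35 call was lost. With the correction DDX58 and IFIH1 were at 0.26 and 0.28 (limma adjusted p = 0.0262 and 0.0293).

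**Figure D3:**
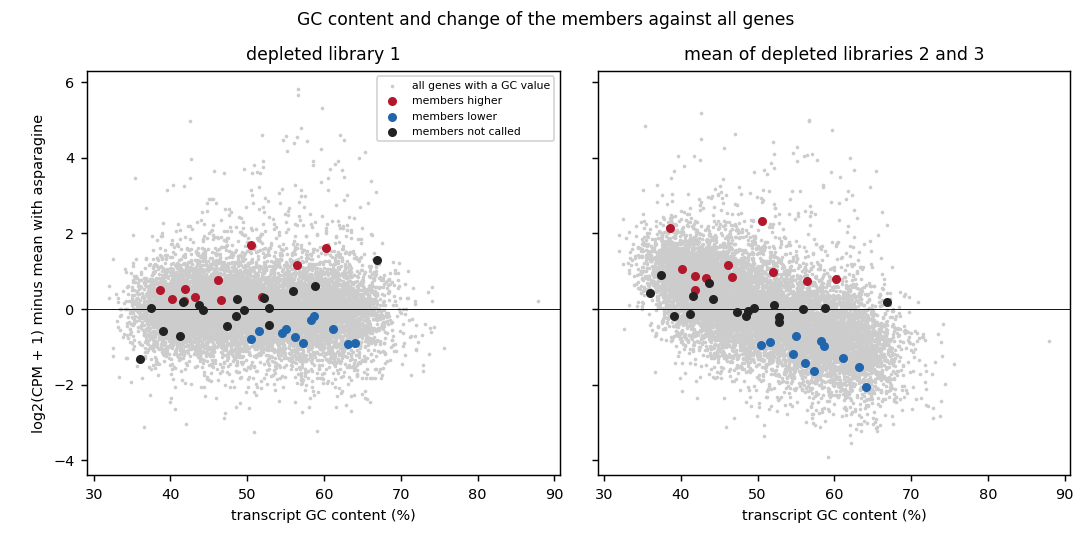
Grey points are all 11352 tested genes with a GC value and large points are the 39 members (red higher, blue lower, black not passing the test), by transcript GC content in percent and by log2(CPM + 1) minus the mean with asparagine, for depleted library 1 (left) and the mean of depleted libraries 2 and 3 (right). The members follow the slope of all genes on the right (r of -0.58 and -0.57 in libraries 2 and 3) and show none on the left (0.055).

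Other genes of the pathway were mixed in the same way. A further 103 genes were listed, 83 of them were tested, and 20 were higher and 21 lower (median log2 fold change -0.013). That is 49.4% called, near the 51.3% among all genes tested. None of the 10 listed interferon genes, IFNB1 included, has a row in the table, where every gene reaches at least 0.54 CPM in some library. Interferon itself was therefore not analysed here.

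Among 11 genes for receptors, kinases and STAT proteins, 5 were higher and 3 lower (median log2 fold change 0.49). The shares over all genes tested were 25.1% higher and 26.2% lower. Of the type I receptor, the IFNAR1 chain rose and the IFNAR2 chain fell. IFNAR1 had 54.03, 47.5 and 55.5 CPM with asparagine and 64.8, 113 and 123 without, and rose 1.91-fold (limma adjusted p = 0.0245). IFNAR2 had 35.2, 39.1 and 39.2 CPM with asparagine and 23.6, 26.9 and 28.8 without, and fell 1.43-fold (limma adjusted p = 0.0193). The IFNAR1 call was lost on leaving out any library other than depleted library 1 (adjusted p of up to 0.0899), and the IFNAR2 call on leaving out any library with asparagine or depleted library 2 (up to 0.0877). JAK1 rose 1.96-fold from 119 ± 5.27 to 232 ± 28.6 CPM (SD, n = 3, limma adjusted p = 0.0018). Its log2 fold change was 0.95. TYK2 fell 1.59-fold from 238 ± 22.7 to 149.6 ± 40.8 CPM (SD, n = 3, limma adjusted p = 0.0262), a call that was lost after the GC correction (-0.13, limma adjusted p = 0.0757), with quantile normalization and on leaving out library 1 or 2 with asparagine or depleted library 2 or 3. IFNGR1, of the interferon gamma receptor, rose 1.64-fold (limma adjusted p = 0.0221) and was also lost after it (0.14, limma adjusted p = 0.26) and on leaving out any library other than depleted library 1.

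Of 19 sensing adaptors and related genes, 3 were higher and 7 lower (median -0.17), beside 25.1% and 26.2% of all genes tested. MAVS, on which RIG-I and MDA5 signal, stood at 249 ± 16.4 and 254 ± 21.9 CPM (SD, n = 3), a log2 fold change of 0.026 that did not pass (limma adjusted p = 0.866). UNC93B1, which carries the Toll-like receptors of endosomes to their place, had 255, 249.97 and 215 CPM with asparagine and 126, 56.4 and 56.9 without. It fell by 1.68 on the log2 scale (limma adjusted p = 0.0055), whereas TLR7, a receptor it carries, rose 1.96-fold to 37.4 ± 12.6 CPM (SD, n = 3, limma adjusted p = 0.0316). The TLR7 call was lost on leaving out any library other than depleted library 1 (adjusted p of up to 0.161). TRAF3, an adaptor below MAVS, fell 1.88-fold to 24.6 ± 2.56, and IRF8, a factor of B and myeloid cells, 1.91-fold to 20.9 ± 2.46 CPM (SD, n = 3, limma adjusted p = 0.00232 and 0.00244).

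Of 15 genes that restrain the response, 2 were higher and 3 lower (median -0.27), beside 25.1% and 26.2% of all genes tested. TREX1, the exonuclease that clears DNA from the cytosol, had 44.9, 48.9 and 42.7 CPM with asparagine and 14.6, 8.12 and 8.10 without. It fell 4.44-fold (log2 fold change -2.09, SE 0.23, limma adjusted p = 0.000846) and stood at -1.50 after the GC correction. RNASEH2C, of the enzyme that removes RNA from DNA, fell 2.13-fold (limma adjusted p = 0.0192). DICER1, which cuts RNA duplexes, rose 1.97-fold (limma adjusted p = 0.0424), and PIAS1, an inhibitor of STAT signalling, 1.78-fold (limma adjusted p = 0.03). The DICER1 and PIAS1 calls were lost on leaving out any library other than depleted library 1 (adjusted p of up to 0.318 and 0.151), and the DICER1 groups overlap. The RNASEH2C call was lost on leaving out any library with asparagine or depleted library 2 (up to 0.0672).

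Of 38 other genes that interferon is known to induce, 10 were higher and 8 lower (median -0.0064), beside 25.1% and 26.2% of all genes tested. LY6E, a membrane protein gene, had 295, 287 and 251 CPM with asparagine and 94.6, 45.9 and 48.6 without, and fell 4.40-fold (limma adjusted p = 0.00131). IFITM2, which hinders virus entry, fell 4.07-fold from 637 ± 82.8 to 157 ± 52.8 CPM (SD, n = 3, limma adjusted p = 0.000972). SLFN5, of the Schlafen family, rose 2.79-fold to 88.1 ± 23.1 CPM, and TRIM38, a ubiquitin ligase gene, 2.54-fold to 179 ± 36.4 (SD, n = 3, limma adjusted p = 0.00426 and 0.00169).

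**Figure D4:**
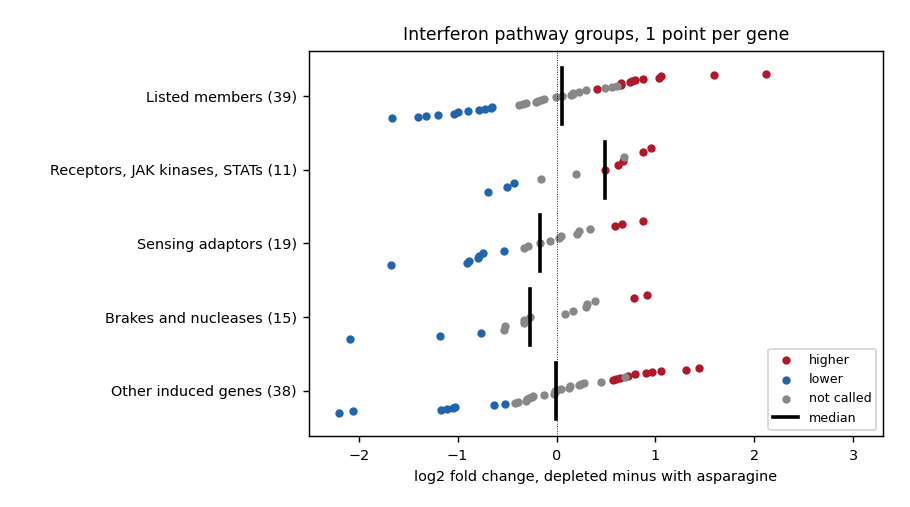
Each point is 1 gene by its log2 fold change, depleted minus with asparagine, for the 39 listed members and 4 further groups of the pathway; black bars are medians. Red and blue points, which passed the test, lie on both sides of 0 in every group, and the medians run from -0.27 to 0.49.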

How the data were processed

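Trizol was used to extract total RNA, per the labels' protocols. FastQC, STAR and featureCounts of Subread were used with build GRCh38, per the submitters' processing notes; for their versions, the annotation, the strand setting and the scaling, the entry is: not given in the sources used here. The deposited values, named normalized CPM in the file and treated as a scaled signal, have column totals of 918783 to 1031234. Each value was a whole multiple of 1 step per column (tolerance 1e-06 of a read), which was taken as 1 read, and 3 reads correspond to 0.0598 to 0.092 CPM.

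Genes reaching 1 CPM in 3 or more libraries were fitted as log2(CPM + 1) with limma 3.58.1 in R 4.3.3 (group as the only term, moderation with a trend, two-sided p-values, Benjamini-Hochberg adjustment, threshold 0.05). The log2 fold change understates changes of low genes; "-fold" is the ratio of group means in CPM. GC content was the median over a gene's protein-coding transcripts (all transcripts where it has none) in GENCODE 29, available for 95.5% of genes. The GC correction removed a lowess trend (span 0.3) in each library from the deviations from each gene's mean. Levels per length used merged GENCODE 29 exons, and gene positions are from GENCODE 29 on GRCh38. The model was tested on simulated data with independent noise for each gene. Those data lack the shift across many genes seen in depleted library 1, so the test does not cover it. Members, lists, roles and tests were chosen with earlier results of these data known. Members with at least 5 CPM in a group or past the threshold were named with values, and from each further list the 4 largest changes past the threshold among genes of 5 CPM or more, plus IFNAR1, IFNAR2, JAK1, TYK2, MAVS and IFNB1; CMPK2 was added after its values were seen. A further gene of that rule is not reported here.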

Additional observations from a re-analysis of the deposited data

How the results depend on the processing

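Over 20 alternative settings, of which voom weights, the genes with a GC value alone and the GC correction lacking depleted library 1 were chosen after seeing the data, 12 of the 22 changed members passed in the same direction each time. Other pseudocounts (0.25 and 4 CPM), no filter, rescaling by a trimmed mean and no moderation trend each gave 11 members higher and 11 lower. So did voom weights on recovered reads and the genes with a GC value alone. In these settings 50.6% to 51.3% of all genes tested were called. A filter at 5 CPM gave 9 and 10, because it removed IFIT2, RSAD2 and USP18 before testing. Of all genes tested with that filter, 51.7% were called. Quantile normalization gave 9 and 12, beside 48.5% called among all genes tested. With 1 library left out, 5 to 14 members were higher and 8 to 13 lower, beside 29.8% to 81.8% called among all genes tested. With depleted libraries 2 and 3 both left out, the lone depleted library is assumed to vary like the others. There the median log2 fold change was 0.50 for the 11 members that rose with all libraries and -0.63 for the 11 that fell. The GC correction gave 13 and 16, beside 69.5% called among all genes with a GC value. When depleted library 1 was left out as well it gave 14 and 18, beside 78.2%. The TRIM22 log2 fold change was -0.043 with the GC correction, -0.043 with the GC correction and replicate block, and -0.15 with that correction when depleted library 1 was left out (limma adjusted p = 0.042); the cause was not tested. With the replicate block, 9 members were higher and 11 lower, beside 48.9% called among all genes tested. With block and GC correction 11 were higher and 15 lower, beside 64.5% of all genes with a GC value. Deviations of same-numbered libraries from their group means correlated at 0.083, -0.65 and 0.69 across genes. Those of differently numbered libraries ranged from -0.74 to 0.71, so these values cannot show whether the numbers pair the samples. The planned tests on recovered reads (edgeR and DESeq2) were not run, and voom weights on recovered reads took their place. Members at few CPM, such as USP18 with 36 to 152 reads per library, are limited by depth.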

Other observations

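Several members lie next to a relative or partner, and their levels were compared within each library as the difference of log2(CPM + 1), which lies nearer 0 than the log2 ratio of CPM where levels are low. RSAD2 and CMPK2 overlap on opposite strands on chromosome 2, and both are known as interferon-induced genes. RSAD2 rose from 1.99 ± 0.408 to 4.12 ± 1.35 CPM while CMPK2, which encodes a mitochondrial nucleotide kinase, fell from 15.9 ± 0.645 to 7.41 ± 1.67 (SD, n = 3, limma adjusted p = 0.0317 and 0.00365). The difference, RSAD2 minus CMPK2, was -2.33, -2.53 and -2.65 in libraries 1, 2 and 3 with asparagine and -0.92, -0.60 and -0.68 in the depleted libraries. The strand setting is not stated, so reads of this pair cannot be told apart where their exons overlap. CMPK2 was named after its values were seen.

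The difference of log2(CPM + 1), HERC6 minus HERC5, was 0.24, 0.11 and -0.022 with asparagine and 1.61, 1.44 and 1.40 in depleted cells. SAMD9L minus SAMD9 was -2.34, -1.95 and -2.18 with asparagine and -0.35, -0.41 and -0.46 without, although each gene alone varied widely between libraries. Depleted library 1, which stood apart in the level of SAMD9, did not stand apart in this difference. DTX3L minus PARP9 changed by 0.17, IFIT2 minus IFIT3 by 0.60 and OAS1 minus OAS2 by -0.69, each without overlap. By contrast MX2 minus MX1 and OAS3 minus OAS2 overlapped between the groups. With 3 against 3 libraries the exact two-sided permutation test of such a difference cannot go below p = 0.1, the value for each of the pairs without overlap, and 8 pairs were computed.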
